A study of Homo sapiens with 3 samples.

Results

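The CDK inhibitor genes described here are the 7 human genes whose proteins bind and block cyclin-dependent kinases (CDKs), the enzymes that drive cells through the division cycle. They were found by name in the annotation of the microarray, CDKN1A, CDKN1B, CDKN1C, CDKN2A, CDKN2B, CDKN2C and CDKN2D, and made up 7 of the 27274 gene names on it. They were covered by 9 probes, each a strand of 60 bases that captures labeled RNA, and by 18 spots. The rule names genes and uses no measured value, though it was set with earlier results of these arrays known.

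The cells were HepG2, a hepatocellular carcinoma line grown in RPMI medium with fetal bovine serum. 3 cultures were compared, a control labeled untreated (0 μM), one treated with 10 μM etoposide and one treated with 100 μM etoposide, all collected after 30 h. Etoposide traps topoisomerase II on DNA and so causes double-strand breaks, and the study set a low dose that leads mainly to senescence against a high dose that leads mainly to apoptosis. Total RNA of each culture was labeled with Cy3 and read on 1 one-color Agilent array per condition. No fold change below thus has a replicate array, and no test between conditions was possible. The paper also gives quantitative PCR folds at these doses for some genes named below, CDKN1A among them, which were not used here. In RNA of a whole culture, fewer cells that express a gene and less of its RNA per cell cannot be told apart.

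CDK inhibitors form a pair of families. The CIP/KIP proteins, p21 (CDKN1A), p27 (CDKN1B) and p57 (CDKN1C), bind the cyclin together with its kinase and act mostly on complexes of CDK2 with cyclins E and A, and of CDK1 with cyclins A and B. The INK4 proteins, p16 (CDKN2A), p15 (CDKN2B), p18 (CDKN2C) and p19 (CDKN2D), bind CDK4 and CDK6 alone and keep the D-type cyclins from them. Both routes leave the retinoblastoma protein unphosphorylated, so that E2F factors stay silent and DNA replication does not start. The p21 gene is known to be switched on after DNA damage, and p16 and p21 are classic markers of senescent cells.

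Of the 9 probes, the 3 that lie in coding sequence known with confidence are printed, since they show which part of each messenger was read. The CDKN1A probe (hg18 chr6:36760156-36760215, + strand) is listed for 2 RefSeq transcripts of the gene, the CDKN1B probe (hg18 chr12:12762386-12762445, + strand) for 1, and the CDKN2A probe (hg18 chr9:21960901-21960960, − strand) for 3, which include those of p16 and of the alternative product ARF. All are written 5′ to 3′ in the sense of the messenger, in lower case, with no part marked.
CDKN1A: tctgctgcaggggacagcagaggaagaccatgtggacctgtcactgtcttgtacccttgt
CDKN1B: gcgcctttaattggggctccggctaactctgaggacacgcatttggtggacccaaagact
CDKN2A: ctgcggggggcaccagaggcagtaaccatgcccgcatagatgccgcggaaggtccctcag

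The DNA just before the start of CDKN1A and of CDKN2C is shown because these 2 members differed most from control. RefSeq gives CDKN1A 1 start in the promoter table used (GRCh38.p14, chr6:36678464-36678713, + strand) and CDKN2C 3 starts. Of those, the window with the most GC boxes is shown (GRCh38.p14, chr1:50968456-50968705, + strand). Each run holds the 250 bases before the start, and capitals mark GC boxes, the letters GGGCGG on either strand, a core that Sp1 can bind.
CDKN1A: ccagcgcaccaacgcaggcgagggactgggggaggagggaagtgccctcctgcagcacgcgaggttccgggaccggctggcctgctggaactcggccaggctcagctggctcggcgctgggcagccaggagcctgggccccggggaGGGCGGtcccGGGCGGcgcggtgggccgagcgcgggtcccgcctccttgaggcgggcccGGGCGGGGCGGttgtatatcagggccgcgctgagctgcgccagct
CDKN2C: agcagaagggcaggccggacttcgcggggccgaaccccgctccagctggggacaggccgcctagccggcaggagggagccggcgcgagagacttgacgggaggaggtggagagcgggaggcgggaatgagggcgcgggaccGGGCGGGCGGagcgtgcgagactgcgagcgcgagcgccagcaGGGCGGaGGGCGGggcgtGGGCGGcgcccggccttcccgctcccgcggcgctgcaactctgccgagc

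The CDKN1A window held 4 GC boxes, starting 104, 94, 45 and 40 bases before the start, the last pair sharing a base. The CDKN2C window held 5, starting 109, 105, 67, 60 and 49 bases before the start, the first pair overlapping. The second CDKN2C window (GRCh38.p14, chr1:50969995-50970244) held 1 and the remaining one (chr1:50960495-50960744) none. A GC box was present in 42.6% of the 35116 promoters of the table, so its presence is common. The same windows of the members in the table, all but CDKN1C, were searched for TATAAA on the sense strand, for the E2F letters TTTCCCGC, TTTCGCGC, TTTGCCGC and TTTGGCGC on both strands, and for the CHR letters TTTGAA on both strands. They held none of these, which 6.8%, 2.79% and 13.3% of all promoters held, respectively. A missing match says only that these letters are not in these 250 bases.

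The arrays were of similar brightness. The 75th percentile of the signal over probes was 514 in control cells, 537 at 10 μM and 433 at 100 μM, and between 19835 and 20150 of 34118 probes were called well above background by the scanner software. The lowest signal called so, taken as the floor, was 19.5, 22.7 and 21.7. Signals below are the background-subtracted intensities as deposited. Fold changes are taken after dividing each array by its 75th percentile, and the floor stands in for a dimmer signal below it. No spot was saturated. Among 999 probes spotted 10 times, the spread between spots of signals from 300 to 2000 had a median SD of 0.05 on the log2 scale on each array. All spot SDs below come from such probes and cover 1 array, not cultures. The labeled cell type was checked by markers: all 10 hepatocyte genes looked up, albumin, alpha-fetoprotein and apolipoproteins among them, were well above background on the 3 arrays, and 0 of 5 fibroblast genes were. Genes listed as markers of other cell types were detected too. Of 3 endothelial genes, 2 were in control cells and at 10 μM, and all 3 at 100 μM. All 4 leukocyte genes were on all 3 arrays, among them CD14, CD3E and, on 1 of 5 probes, PTPRC.

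Of the 7 CDK inhibitor genes, 5 were well above background on all 3 arrays, and CDKN1C and CDKN2B were on none. At 10 μM, 1 member passed 2-fold over control, CDKN1A, which was higher. Genes tested were those well above background on either array of a comparison. Of the 16714 tested here, 3.37% were more than 2-fold higher and 1.57% more than 2-fold lower. A fold change was given for 16659 of them, and the rest stayed in the denominator. At 100 μM, CDKN1A was again more than 2-fold higher and CDKN2C more than 2-fold lower, where 6.72% of 16977 genes were higher and 3.63% lower by that much. Between the doses, CDKN2C alone passed 2-fold, with the higher level at 10 μM, where 3.64% of 16791 genes were more than 2-fold higher at 10 μM and 3.93% more than 2-fold lower. The share of all calls that lay on the higher side at 100 μM was 64.9% here but 33.2% with median scaling, and between the doses it was 48.1% here and 77.8% without scaling. With 7 genes these counts are a description, and both comparisons with control share the same control array.

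**Figure D1:**
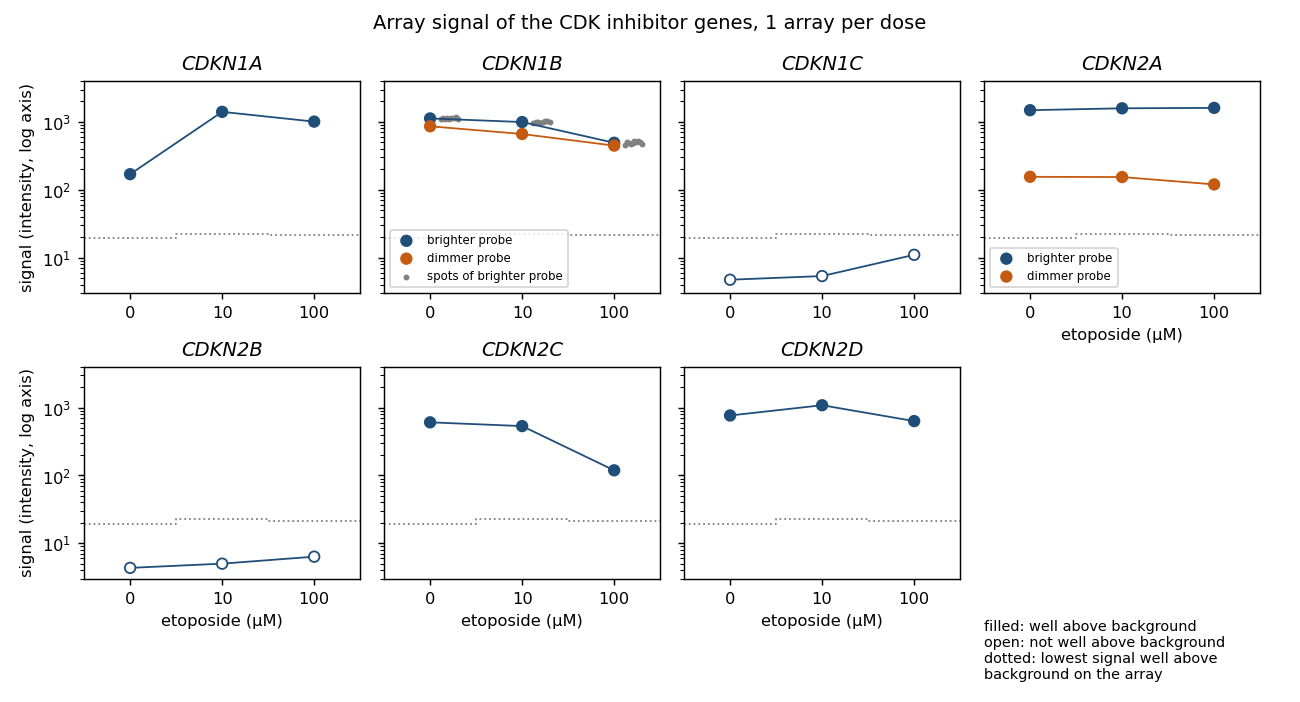
Signal of each CDK inhibitor gene (intensity on a log axis) at 0, 10 and 100 μM etoposide, with 1 point per probe and array and, for CDKN1B, gray points for the single spots of its brighter probe. Filled points were well above background, the dotted line is the lowest signal called so on each array, and CDKN1C and CDKN2B lie below it at all doses.

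CDKN1A (NM_078467), the p21 protein that blocks CDK2 and CDK1 complexes, was the one member more than 2-fold higher than control. Its signal was 169.8 in control cells, 1407 at 10 μM and 1010 at 100 μM. After scaling it was 7.94-fold higher at 10 μM (log2 2.99, spot SD 0.09) and 7.07-fold higher at 100 μM (log2 2.82, spot SD 0.09). Both treated arrays stood far above the control array and close to each other: the low dose was 1.12-fold above the high dose (log2 0.17, spot SD 0.07), and 1.07- to 1.39-fold above it over all settings of the processing tried. Among the genes tested, 33 (0.197%) had a larger fold than CDKN1A at 10 μM and 24 (0.141%) at 100 μM.

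CDKN1B (NM_004064), the p27 protein that holds resting cells out of the cycle, is read by a pair of probes. The brighter one (hg18 chr12:12766207-12766266, + strand) gave 1125 in control cells, 995.4 at 10 μM and 492.9 at 100 μM. It is spotted 10 times on each array, and after leaving out 1 and 2 outlier spots on the first 2 arrays its spots ranged from 1086 to 1177, from 962.1 to 1027 and from 457.2 to 519.6. These ranges did not overlap, and they did not overlap after scaling either. How many of the other repeated probes were separated in the same way was not counted, so this does not set CDKN1B apart. Repeated spots share 1 RNA sample and are not replicates of the dose.

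In fold changes, the brighter CDKN1B probe was 1.18-fold lower at 10 μM (log2 −0.24) and 1.92-fold lower at 100 μM (log2 −0.94), each with a spot SD of 0.02, which left it just inside 2-fold. The dimmer probe, whose sequence is printed above, gave 862.1, 663.2 and 447.7. It was 1.36-fold lower at 10 μM and 1.62-fold lower at 100 μM (log2 −0.44 and −0.70, spot SD 0.07), and so pointed the same way with another split between the doses. Whether the brighter CDKN1B probe passes 2-fold at 100 μM turned on the scaling of the arrays. Unscaled, it was 0.438-fold of control, and it also passed with median scaling and with scaling by spike-in controls. The dimmer probe was 0.519-fold of control unscaled, inside 2-fold, so the call depends on the probe as well.

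CDKN1C (NM_000076), the p57 protein made from the maternal copy of an imprinted region, is read by 1 probe (hg18 chr11:2861479-2861538, − strand). Its signals were 4.74, 5.37 and 11.03, all below the floor of their array and none well above background, so no fold change is given. The value at 100 μM was the highest of the 3, at 0.509 of its floor against 0.243 in control cells, a range in which signals have no order here.

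The INK4 genes CDKN2A and CDKN2B lie next to each other on chromosome 9. CDKN2A (NM_058197), whose p16 product is a senescence marker in many cell types, was well above background in control cells already. Its brighter probe (hg18 chr9:21958039-21958098, − strand) gave 1488, 1586 and 1609. That was 1.02-fold of control at 10 μM (log2 0.03, spot SD 0.06) and 1.28-fold of control at 100 μM (log2 0.36, spot SD 0.06). The dimmer probe, printed above, gave 155.4, 154.1 and 120.1, or 0.950-fold and 0.918-fold of control (log2 −0.07 and −0.12, spot SD 0.10 and 0.11). The probes thus lay on opposite sides of control at 100 μM, the dimmer one by little more than its spot SD, and neither reached 1.5-fold. Both are listed for transcripts of p16 and of ARF, so these products cannot be told apart.

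CDKN2B (NM_004936), the p15 protein known as a target of TGF-β signaling, gave 4.36, 5.03 and 6.37 on its probe (hg18 chr9:21998979-21999038, − strand). All 3 were below the floor, as for CDKN1C. The long noncoding RNA CDKN2B-AS1 that runs across this locus was not well above background either, at 11.8, 5.43 and 5.41. MTAP, the neighboring gene for a methionine salvage enzyme, was well above background at 1090, 932.2 and 567.4 and was 1.62-fold lower at 100 μM (log2 −0.69, spot SD 0.07).

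CDKN2C (NM_078626), the p18 protein, was the one member more than 2-fold lower than control, and that at the high dose. Its signal on 1 probe (hg18 chr1:51212551-51212610, + strand) was 606.6 in control cells, 534.1 at 10 μM and 119.1 at 100 μM. The first 2 arrays were close, at 1.18-fold lower for 10 μM (log2 −0.24, spot SD 0.07), and the high dose stood apart. At 100 μM it was 4.29-fold lower than in control cells (log2 −2.10, spot SD 0.10) and 3.62-fold lower than at 10 μM (log2 of 10 μM over 100 μM 1.85, spot SD 0.09). Among the 16977 genes tested at 100 μM, 147 (0.866%) were lower than CDKN2C. Its signal there was still well above background, so this is a measured fold and not a bound.

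CDKN2D (NM_001800), the p19 (INK4d) protein whose messenger normally climbs toward S phase, had a different order of doses. Its probe (hg18 chr19:10538226-10538285, − strand) gave 765.1, 1083 and 632.6. It was 1.36-fold higher at 10 μM (log2 0.44, spot SD 0.07) and 0.982-fold of control at 100 μM (log2 −0.03, spot SD 0.07). The 10 μM array was the highest of the 3, 1.38-fold above the 100 μM array. At the high dose its direction changed with the scaling, from 0.804-fold to 1.03-fold of control.

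**Figure D2:**
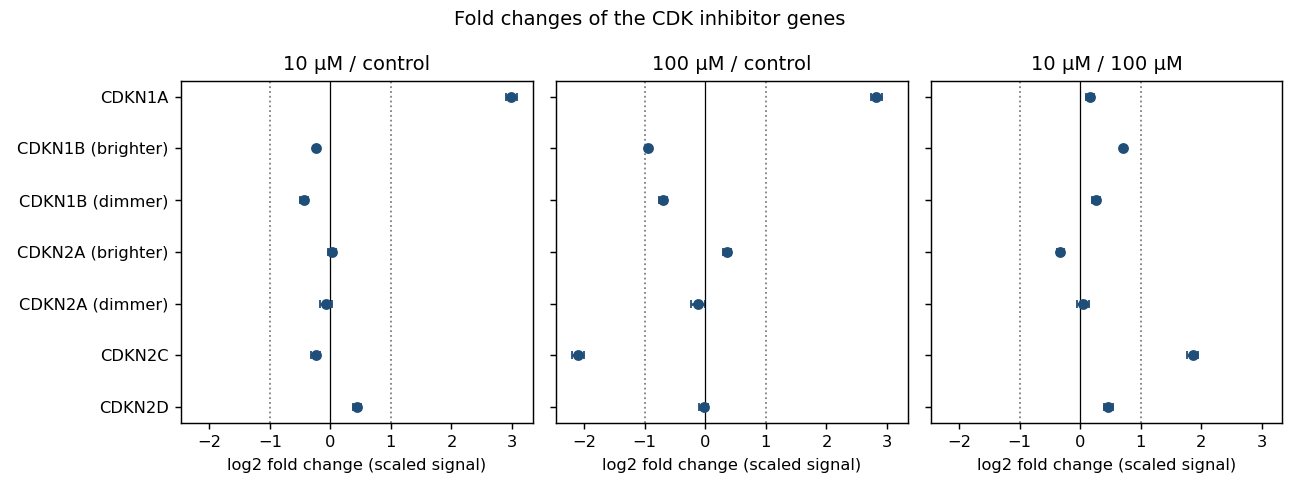
Log2 fold change of each CDK inhibitor probe above background in the 3 comparisons, with bars of 1 spot SD and dotted lines at 2-fold. CDKN1A lies near 3 against control at both doses, CDKN2C at −2.10 at 100 μM, and the probes of CDKN1B and CDKN2A within 2-fold.

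The 5 measured members did not share one direction. Ordered by fold at 10 μM they ran CDKN1A, CDKN2D, CDKN2A, CDKN1B and CDKN2C, with log2 values of 2.99, 0.44, 0.03, −0.24 and −0.24. At 100 μM the order was CDKN1A, CDKN2A, CDKN2D, CDKN1B and CDKN2C, at 2.82, 0.36, −0.03, −0.94 and −2.10. The median of all genes was −0.04 at 10 μM and 0.09 at 100 μM. CDKN1B and CDKN2C did not differ at 10 μM beyond their spot SD. On the brightest probes, neither family had all its measured members on the same side of control at either dose. For INK4 at 100 μM this depended on the probe. CDKN2A was at −0.12 there on its dimmer probe, which put all measured INK4 members below control. CDKN2A at 10 μM and CDKN2D at 100 μM differed from control by less than their spot SD.

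**Figure D3:**
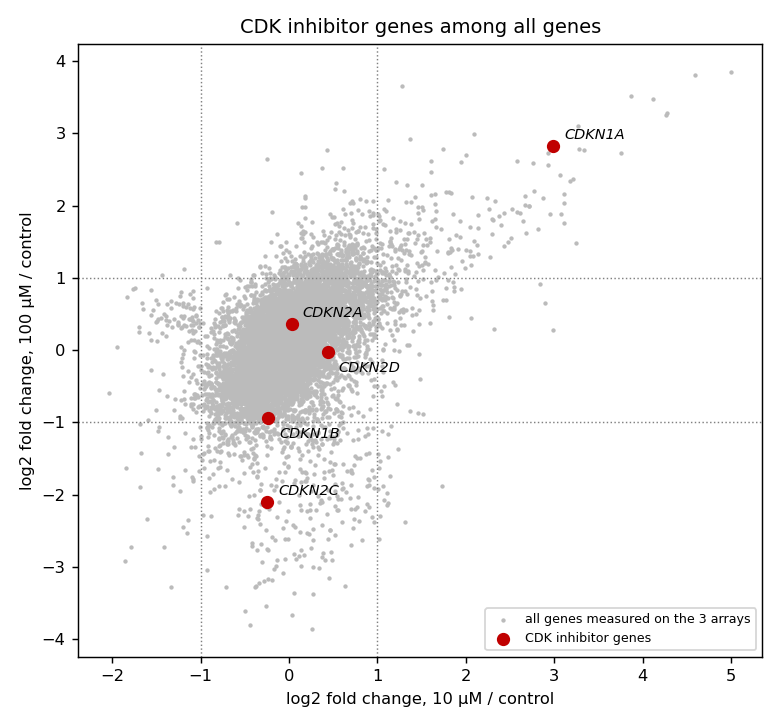
Log2 fold change over control at 10 μM (horizontal) and 100 μM (vertical) for all genes measured on the 3 arrays (gray) and the 5 measured CDK inhibitor genes (red), with dotted lines at 2-fold. CDKN1A sits at the upper right at 2.99 and 2.82, and CDKN2C low at −0.24 and −2.10; the 2 axes share the control array.

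The genes whose fold changes were nearest to those of CDKN1A were sought among 12046 genes with RefSeq mRNA probes above background on the 3 arrays, by the distance between the pairs of log2 folds at 10 and 100 μM. Among the 5 nearest were CDC42BPG (distance 0.11), a kinase downstream of CDC42, EBI3 (0.30), a cytokine subunit, BTG2 (0.36), an antiproliferative gene, and CD3D (0.40), a subunit of the T cell receptor complex. BTG2 was at 211.8 in control cells, 2241 at 10 μM and 1214 at 100 μM. CDC42BPG and EBI3 were dimmer in control cells, at 30.9 and 61.4 against a floor of 19.5. Their folds and distances are thus less precise. In all, 7 genes lay within a distance of 0.5 of CDKN1A, against 48 for CDKN2C. With 3 arrays this likeness rests on 2 fold changes per gene.

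The genes nearest to CDKN2C were KIF20A (distance 0.08), a kinesin of cell division, HIST1H4C (0.10) and HIST1H4A (0.17), genes for histone H4, DEPDC1B (0.13), a gene tied to mitosis, and PTTG2 (0.16), a relative of securin. KIF20A was at 549.0 in control cells, 477.6 at 10 μM and 102.3 at 100 μM, and DEPDC1B at the high dose was 0.233-fold of control. That these genes were low on the 100 μM array and near control on the 10 μM array follows from how they were picked. The histone H4 genes and PTTG2 have near-identical copies elsewhere in the genome, so their probes may read more than 1 gene.

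The kinases and cyclins that CIP/KIP proteins bind were looked up next, as part of 7 gene lists with 95 genes on the array. Of the 10 partners, 9 had a fold change. At 10 μM, 1 was more than 2-fold higher, CCNE2 (cyclin E2), and none lower, with a median log2 fold of 0.08. At 100 μM none was higher and 4 were more than 2-fold lower, CDK1, CCNA2, CCNB1 and CCNB2, with a median of −0.63 that was −0.08 with normexp background correction and −0.92 with quantile normalization. Between the doses 6 of 9 were more than 2-fold higher at 10 μM, with a median of 1.88, which was 0.74 with normexp.

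CDK1, the kinase of mitosis, went from 1763 in control cells to 2709 at 10 μM and 318.3 at 100 μM, which was 1.47-fold higher and then 4.66-fold lower (log2 0.56 and −2.22, spot SD 0.02). CCNB2, cyclin B2, went from 6419 to 5142 and 554.3 and CCNA2, cyclin A2, from 836.9 to 919.8 and 95.2. CCNB1, cyclin B1, was at 4173, 4161 and 638.0. These mitotic genes were within 2-fold of control at the low dose and low at the high dose, as CDKN2C was. CCNE2 was at 47.5, 138.1 and 30.4, 2.79-fold higher at 10 μM (log2 1.48, spot SD 0.18). Its second probe was not well above background on any array.

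The targets and partners of the INK4 proteins showed no such shift. All 5, CDK4, CDK6 and the D-type cyclins, were measured, and none passed 2-fold in any comparison, with median log2 folds of 0.23 at 10 μM and 0.31 at 100 μM. The one closest to 2-fold at 10 μM, chosen after its values were seen, was CCND3 (cyclin D3) at 285.7, 556.9 and 382.9, or 1.87-fold and 1.59-fold of control (log2 0.90 and 0.67, spot SD 0.08). Of the 3 pocket proteins that CDKs phosphorylate, RBL1 (p107) passed 2-fold at 100 μM, from 123.7 in control cells and 191.2 at 10 μM to 50.9. After scaling this was 2.05-fold lower than control (log2 −1.03, spot SD 0.17), past 2-fold by less than its spot SD. The second RBL1 probe gave no fold at 100 μM. RB1 and RBL2 stayed within 2-fold in all comparisons.

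p21 and p27 are kept low in dividing cells by ubiquitin ligases, and 17 genes of that turnover were measured, 1 of them with no fold at 100 μM because its bound was under 1. At 10 μM, 1 was more than 2-fold higher and none lower (median log2 0.03), and at 100 μM none was higher and 4 were lower (median −0.33). The higher one was DTL, the receptor that brings p21 to the CUL4 ligase during replication, at 466.8, 1211 and 75.3. It was 2.49-fold higher at 10 μM (log2 1.31, spot SD 0.02) and 5.22-fold lower at 100 μM (log2 −2.38, spot SD 0.04).

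The others that were lower at 100 μM were SKP2, the receptor for p27, CKS1B, its cofactor, and CDC20, an activator of the anaphase-promoting complex. SKP2 was at 215.3, 114.5 and 66.8 and was already 1.96-fold lower at 10 μM. CKS1B was at 14840, 18300 and 2679, and its second probe had the same order of arrays. CDC20 was at 911.0, 635.4 and 157.5. For DTL and CKS1B the 10 μM array was the highest of the 3, and for SKP2 and CDC20 the control array was.

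**Figure D4:**
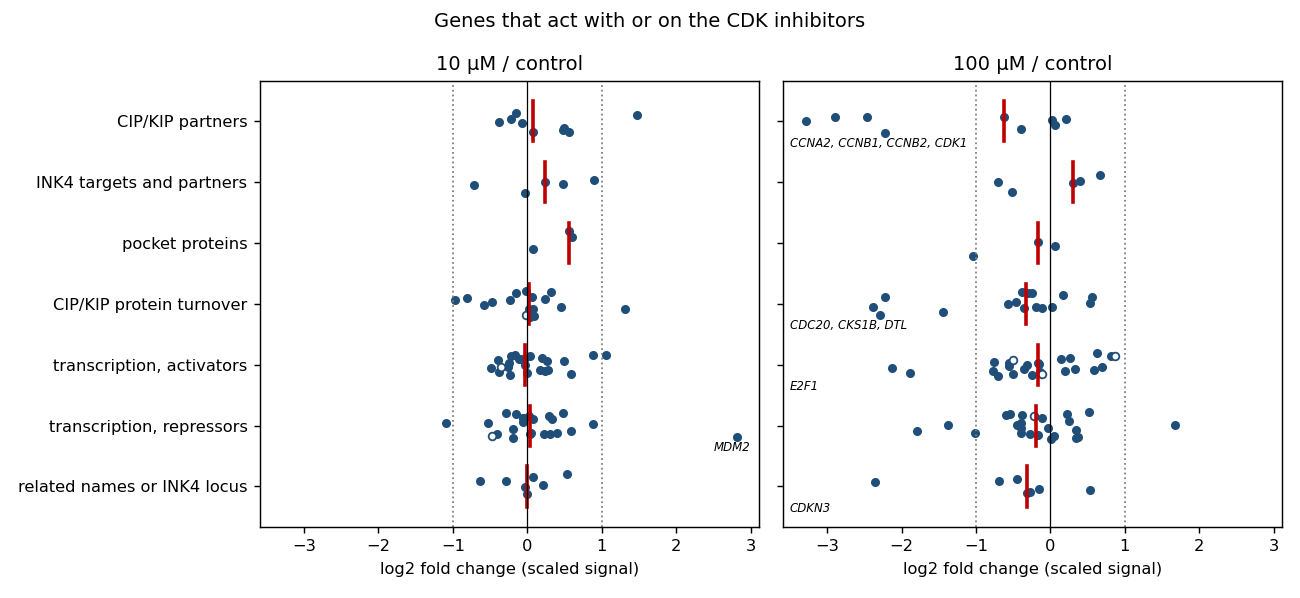
Log2 fold change over control at 10 μM (left) and 100 μM (right) of each gene in the 7 lists, 1 point per gene. Points are open where a signal was not well above background. The red bar is at the median of each list, and dotted lines are at 2-fold. The names are of genes beyond 2 on the log2 scale, which were MDM2 at 10 μM and 9 genes on the low side at 100 μM.

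Transcription factors and cofactors that raise CDK inhibitor genes made up 27 genes, of which 24 had a fold change at 10 μM and 25 at 100 μM. BRCA1 alone was more than 2-fold higher at 10 μM, and E2F1 and BRCA1 were more than 2-fold lower at 100 μM, with medians of −0.03 and −0.17. E2F1, an S phase factor that is itself an E2F target, was at 485.5, 935.8 and 93.7. BRCA1, a DNA repair protein and coactivator, was at 583.3, 1273 and 132.9. Both were highest on the 10 μM array.

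Of the 25 genes that hold CDK inhibitor genes down, 24 had a fold change at each dose. MDM2, a ubiquitin ligase induced by DNA damage, was the one past 2-fold on the high side at both doses. It was at 616.1, 4522 and 1652, 7.03-fold higher at 10 μM and 3.19-fold higher at 100 μM (log2 2.81 and 1.67, spot SD 0.07). On its other 2 probes it was 4.88-fold and 3.57-fold higher at 10 μM. CDKN1A and MDM2 were thus both more than 2-fold above control at both doses, but the low dose was 2.21-fold above the high dose for the brightest MDM2 probe, 1.76-fold and 1.62-fold for its other 2 probes, and 1.12-fold for CDKN1A.

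MYC, known to repress CDKN1A and CDKN2B, was the one more than 2-fold lower at 10 μM, at 12510, 6132 and 3044, or 2.13-fold and 3.46-fold lower. EZH2, the methyltransferase of Polycomb that acts on the INK4 locus, was at 1100, 1448 and 357.9. DNMT1, the maintenance DNA methyltransferase, was at 912.3, 1426 and 381.9. At 100 μM EZH2 was 2.59-fold lower (log2 −1.37, spot SD 0.08). DNMT1 was 2.01-fold lower there (log2 −1.01, spot SD 0.08), so its call lay at the threshold. Both were within 2-fold at 10 μM. The medians of the list were 0.03 and −0.20.

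Among 8 genes with related names or at the INK4 locus, 7 were measured and 1 passed 2-fold, CDKN3, a phosphatase of CDK1 and CDK2 and not an inhibitor of the families above. It was at 1437, 1468 and 235.6, 5.13-fold lower at 100 μM (log2 −2.36, spot SD 0.08), and its second probe was 5.86-fold lower. Over all 7 lists, 4 of 89 genes (4.49%) were more than 2-fold higher and 1 (1.12%) lower at 10 μM, and 1 of 90 (1.11%) was higher and 15 (16.7%) lower at 100 μM. Over all genes tested, 3.37% were higher and 1.57% lower at 10 μM, close to the share in the lists, and 6.72% were higher and 3.63% lower at 100 μM. Between the doses 16 of 87 (18.4%) were more than 2-fold higher at 10 μM and none lower. Of all genes tested, 3.64% were higher and 3.93% lower in that comparison. The 16 became 21 without scaling and 13 with normexp. The lists hold many genes of the cell cycle by construction, and they are not a sample of all genes.

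**Figure D5:**
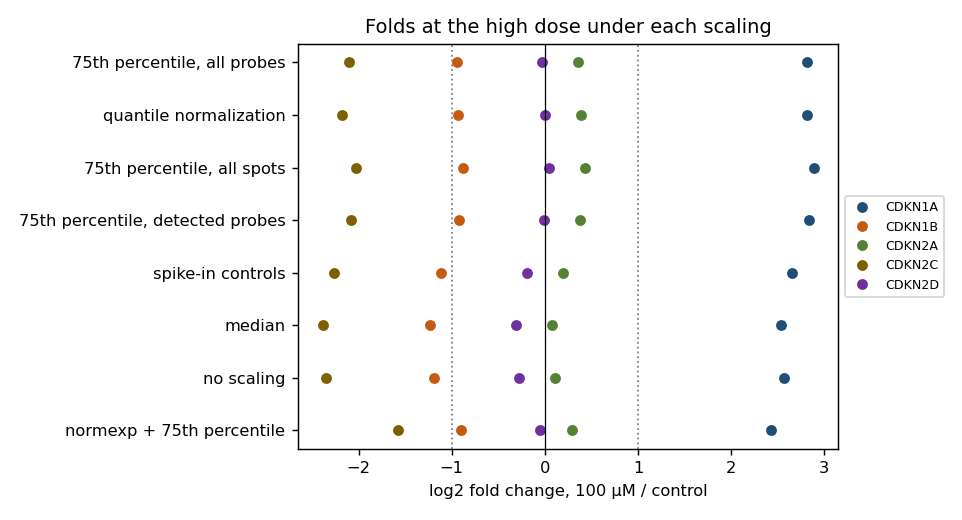
Log2 fold change of the 5 measured CDK inhibitor genes at 100 μM over control (horizontal) under each of 8 ways to scale or background-correct the arrays (vertical), with dotted lines at 2-fold. CDKN1A stays between 2.43 and 2.89 and CDKN2C between −2.39 and −1.58, while CDKN1B crosses the 2-fold line.

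CDKN1A and CDKN2C kept their direction and stayed past 2-fold at 100 μM under each way of scaling, background correction and probe selection tried. CDKN1B ran from −1.23 to −0.70 and was lower than control in all of them. CDKN2A at 10 μM and CDKN2D at 100 μM changed sign between settings, and these 2 folds were smaller than the shift between settings. CDKN2A at 100 μM ran from −0.12, on its dimmer probe, to 0.43, and so changed sign too.

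Markers of other cell types were measured beside these results. Of the leukocyte genes looked up, CD14 was at 520.6, 1184 and 1847. PTPRC, which defines leukocytes, was at 257.3, 131.4 and 288.2 on its 1 detected probe. The summed signal of 3 endothelial genes was 529.7, 363.0 and 353.8, most of it from PECAM1 at 472.8, 297.6 and 286.1. That of 5 fibroblast genes was 23.5, 31.4 and 38.7. None of these 5 was well above background on any array, so their sums have no order here. The part of these marker genes in the CDK inhibitor values was not tested.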

How the data were processed

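HepG2 RNA of 3 conditions was read on 1 one-color Agilent array each. Per the labels and methods, the authors deposited Feature Extraction (version 10.7.3.1) output with the intensity of each spot after background subtraction, and a series table whose intensity values were equal to it for all 44495 spots of each array. Probe positions are on hg18.

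From the deposited intensity, log2 values were averaged over the spots of a probe, without outlier spots, and set relative to the 75th percentile over probes of each array. A fold change needed the brighter condition well above background, in more than 0.5 of the spots, and the dimmer signal was raised to the array's floor where below it. A gene is shown by its brightest probe. The threshold was 2-fold. 9 probes with outlier spots only on an array were left out. The array number limits the precision.

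The members and lists were chosen with earlier results of these data known. All members were named, of each list up to 4 genes past 2-fold per direction and comparison, and the 5 nearest genes of each member past 2-fold. Some genes that this rule selects are not reported here. The control is labeled untreated, while the paper names DMSO, the solvent, as the denominator of its array ratios. Promoters are RefSeq's (GRCh38.p14), with 6 of 7 members in the table; exon annotation on hg18 was not used here. Alternatives were other scalings, normexp with an offset of 50 added to each signal (limma 3.58.1, R 4.3.3), filters, probe rules and thresholds. Steps were tested on simulated data in Python 3.11.15.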

Additional observations from a re-analysis of the deposited data

How the results depend on the processing

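Over all alternatives, none turned the direction of a member that was past 2-fold or the count of members past 2-fold at 10 μM over control, which stayed at 1. The count for 10 μM over 100 μM was 1 and became 2 without scaling and at a threshold of 1.5-fold, with CDKN1B added, and 2 without the filter on dim probes, with CDKN1C added below the floor. At 100 μM over control the 2 members became 3 in those same settings and under median and spike-in scaling. Of the genes in the pathway lists, 5 passed 2-fold at 10 μM over control. This became 3 with normexp, 7 without the filter on dim probes, 13 at 1.5-fold and 1 at 3-fold. At 100 μM the 16 became 29 at 1.5-fold, and 1 higher and 11 lower at 3-fold. There it was 13 with normexp, 14 with the percentile over all spots, 18 without scaling or with median scaling, and 20 without the filter. The cause of the normexp differences was not tested. The dimmer probe of CDKN1B and CDKN2A was an alternative chosen after seeing the data. Scaling moved the median log2 fold of all genes at 100 μM over control from −0.19 to 0.16, so folds of that size depend on it. Of 201 member folds under alternatives, 143 moved by less than the spot SD and 58 by more. No paired analysis was possible because only 1 array was run at a dose. Genes below the floor, CDKN1C and CDKN2B, have no measured change.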
